A study of Mus musculus with 32 samples.

Results

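Glucocorticoid responsive genes formed the top of the list of transcripts that were higher in the tibialis anterior (TA) muscle of newborn *Mtm1* knockout (KO) mice than in their wild-type (WT) littermates. The 10 genes followed here were *Zbtb16*, *Fkbp5*, *Per1*, *Klf9*, *Tsc22d3*, *Timp4*, *Arrdc2*, *Adh1*, *Mettl21e* and *Sult1a1*, out of 54838 genes in the expression table. They were chosen by their KO over WT change at P1, the first day after birth, so their P1 values are given as a description without a test, and the questions asked with a test concern P14, P21 and P35. By unpaired edgeR tests 0 of the 10 genes differed between genotypes past the thresholds at P14 and P21, as 0.0318% and 4.67% of all genes did. *Mettl21e* was past them, lower in KO, by DESeq2 at P21, where 6.86% of all genes were. It also was in an edgeR fit blocked by replicate number at P14, where 0.623% were. At P35 3 of the 10 genes (*Timp4*, *Adh1* and *Klf9*) were lower in KO by edgeR, where 7.52% of all genes were. Each of these 3 calls was lost under at least 1 other setting of the processing. At P14 the mouse numbered replicate 4 was the highest of its genotype for 9 of the 10 genes, in WT and KO alike, against 24% of all genes.

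RNA was sequenced in 32 TA muscle libraries, each taken as a separate mouse, with *n*=4 per genotype at P1, P14, P21 and P35. KO mice carry a targeted *Mtm1* allele in which exon 4 is deleted, which shifts the reading frame; the gene is X-linked and encodes myotubularin, a phosphatase of phosphoinositide lipids that is mutated in X-linked myotubular myopathy. The line was moved from its 129S2PAS origin onto C57BL6/J, WT mice were littermates, and the labels name no treatment for either genotype. Library totals ran from 49321035 to 85631408 estimated counts, and each of the 10 genes passed the filter on low counts at all ages. *Mtm1* transcript, the check of the labels, was at 2.32 to 3.91 CPM, the read count scaled to the size of its library, in the 4 KO libraries against 5.26 to 6.02 CPM in WT at P1, and at 2.64 to 4.51 CPM against 18.9 to 24.9 CPM at the later ages, without overlap. Markers of muscle fibre were present in every library (0 of 8 at 0), and keratinocyte markers summed to 1995 to 7212 CPM at P1 against 11.3 to 60.3 CPM at later ages. The muscle was sequenced in bulk, so fewer cells of a type and less RNA per cell cannot be told apart.

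Glucocorticoids are steroid hormones of the adrenal cortex. They enter the cell, bind the glucocorticoid receptor (*Nr3c1*), release it from its chaperones and send it to the nucleus, where it binds palindromic response elements and raises or lowers transcription. In skeletal muscle the hormone is known for promoting protein breakdown and for changing fuel use, and its blood level follows a daily rhythm and rises with stress and fasting. The 10 genes span several roles. *Zbtb16* and *Klf9* encode zinc finger transcription factors, and *Tsc22d3* encodes GILZ, a leucine zipper protein that carries part of the anti-inflammatory action of glucocorticoids. *Fkbp5* encodes an immunophilin co-chaperone that lowers the affinity of the receptor for its hormone, and *Per1* encodes a repressor of the circadian clock. *Timp4* encodes an inhibitor of matrix metalloproteinases, *Arrdc2* an alpha-arrestin, *Adh1* an alcohol dehydrogenase that also oxidizes retinol, *Mettl21e* a lysine methyltransferase of skeletal muscle, and *Sult1a1* a sulfotransferase of phenolic compounds.

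Upstream sequences were read for the genes to see which carry the letters of a receptor or clock motif close to their start. RefSeq promoter windows of GRCm38.p6 (300 bases, 250 before and 50 after a transcript start) were on hand for 8 of the 10 genes, in 11 windows; *Zbtb16* and *Mettl21e* had none. Both strands were searched. The full palindromic glucocorticoid response element was in 0 of the 11 windows and in 0.0487% of all 32851 windows. Its half-site AGAACA, which is also part of the full palindrome and reads TGTTCT on the other strand, was in 3 windows, those of *Adh1*, *Sult1a1* and *Tsc22d3*, and in 19.0% of all windows. The E-box CACGTG, the letters bound by the clock activators, was in 3 windows, those of *Adh1*, *Per1* and *Fkbp5*, and in 7.15% of all windows. A match is a description of these letters, and no match says only that they are not in this window. The 250 bases before the start are shown for *Per1* and *Fkbp5*, which hold an E-box, and for *Tsc22d3* and *Sult1a1*, which hold half-sites. They are written 5′ to 3′ on the strand of the gene, with the motif in capitals. In the windows shown, the E-boxes begin 166 bases before the transcript start for *Per1* and 169 before it for *Fkbp5*. The half-sites begin 185 bases before it for *Tsc22d3*, and 212 and 34 bases before it for *Sult1a1*. Another *Per1* window, at chr11:69099902-69100201, held none of the motifs. The other *Tsc22d3* windows, at chrX:140542619-140542918 and chrX:140548522-140548821, held none either.
Per1 (chr11:69098699-69098948, plus strand): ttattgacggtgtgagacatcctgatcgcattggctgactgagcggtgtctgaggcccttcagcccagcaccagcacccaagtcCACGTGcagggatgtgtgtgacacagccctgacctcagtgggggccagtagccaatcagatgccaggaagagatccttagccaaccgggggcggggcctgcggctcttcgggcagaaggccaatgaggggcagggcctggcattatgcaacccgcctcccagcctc
Fkbp5 (chr17:28486150-28486399, minus strand): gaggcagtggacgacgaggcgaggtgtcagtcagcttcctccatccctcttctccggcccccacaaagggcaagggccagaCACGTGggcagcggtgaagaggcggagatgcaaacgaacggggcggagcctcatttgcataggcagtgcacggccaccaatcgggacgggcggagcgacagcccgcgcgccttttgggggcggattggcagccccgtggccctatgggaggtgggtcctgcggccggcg
Tsc22d3 (chrX:140600523-140600772, minus strand): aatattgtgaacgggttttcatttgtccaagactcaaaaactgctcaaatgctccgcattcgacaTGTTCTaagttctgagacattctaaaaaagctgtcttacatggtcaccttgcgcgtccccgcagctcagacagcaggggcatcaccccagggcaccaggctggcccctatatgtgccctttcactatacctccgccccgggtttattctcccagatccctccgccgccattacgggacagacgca
Sult1a1 (chr7:126676419-126676668, minus strand): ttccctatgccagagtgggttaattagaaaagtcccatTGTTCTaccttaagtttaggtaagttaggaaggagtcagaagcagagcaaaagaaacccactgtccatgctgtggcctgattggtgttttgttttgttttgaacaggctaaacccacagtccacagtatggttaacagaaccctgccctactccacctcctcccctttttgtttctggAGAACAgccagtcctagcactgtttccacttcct

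At P1 all 10 genes stood higher in the 4 KO libraries than in the 4 WT libraries without overlap, as the way they were chosen required. *Zbtb16* had the widest gap, with 28.9, 32.1, 34.6 and 39.5 CPM in KO against 8.72, 9.57, 11.8 and 9.98 CPM in WT (log2 fold change 1.77 ± 0.12 SE, or 3.40-fold). The co-chaperone *Fkbp5* followed, at 62.2, 70.3, 65.9 and 76.8 CPM in KO, with 18.6, 20.2, 29.1 and 25.4 CPM in WT (2.98-fold). *Timp4* was a gene of low level at birth and was 2.80-fold higher, with 7.33 to 9.91 CPM in KO and 2.86 to 3.20 CPM in WT. *Per1* was 2.35-fold and *Arrdc2* 2.16-fold higher. The remaining 5 lay between 1.79-fold (*Sult1a1*) and 1.95-fold (*Adh1*), with *Tsc22d3* at 1.94-fold, *Mettl21e* at 1.92-fold and *Klf9* at 1.85-fold. The choice fixed how many of the 10 passed the thresholds used at the later ages (edgeR, adjusted *P*<0.01 over all genes and a change of over 1.5-fold), so nothing is read from that number, which was 8; 0.0442% of the 18100 genes tested at P1 passed, or 8 genes in all. That count was 0 without WT replicate 1, 2 or 4, from 3 to 5 without WT replicate 3 or KO replicate 1, 2 or 3, and 8 without KO replicate 4. *Tsc22d3* (log2 fold change 0.96 ± 0.11) and *Sult1a1* (0.84 ± 0.09) stood just outside, beside *Mettl21e* (0.94 ± 0.10) and *Klf9* (0.89 ± 0.08) just inside. Libraries that did not overlap, KO higher, were seen for 3.85% of all genes.

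Spread among mice of a genotype at P1 was close to that of all genes. The choice at P1 favours genes with little spread there, so the P1 spread is a description. Within WT the SD of log2(CPM + 0.5) had a median of 0.12 over the 10 genes and of 0.10 over all 18583 genes, and within KO 0.15 and 0.15. *Klf9* in WT, for example, ran from 13.9 to 14.3 CPM. Keratinocyte marker sums, a sign of skin in the dissected muscle, overlapped between KO (1995 to 5917 CPM, median 4817) and WT (2289 to 7212 CPM, median 2909) at this age. All 12 keratinocyte markers had a P1 estimate above 0, with a median log2 fold change of 0.40 against 0.01 for all genes, and 0 were called. The part of these markers in the P1 values was not tested.

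**Figure D1:**
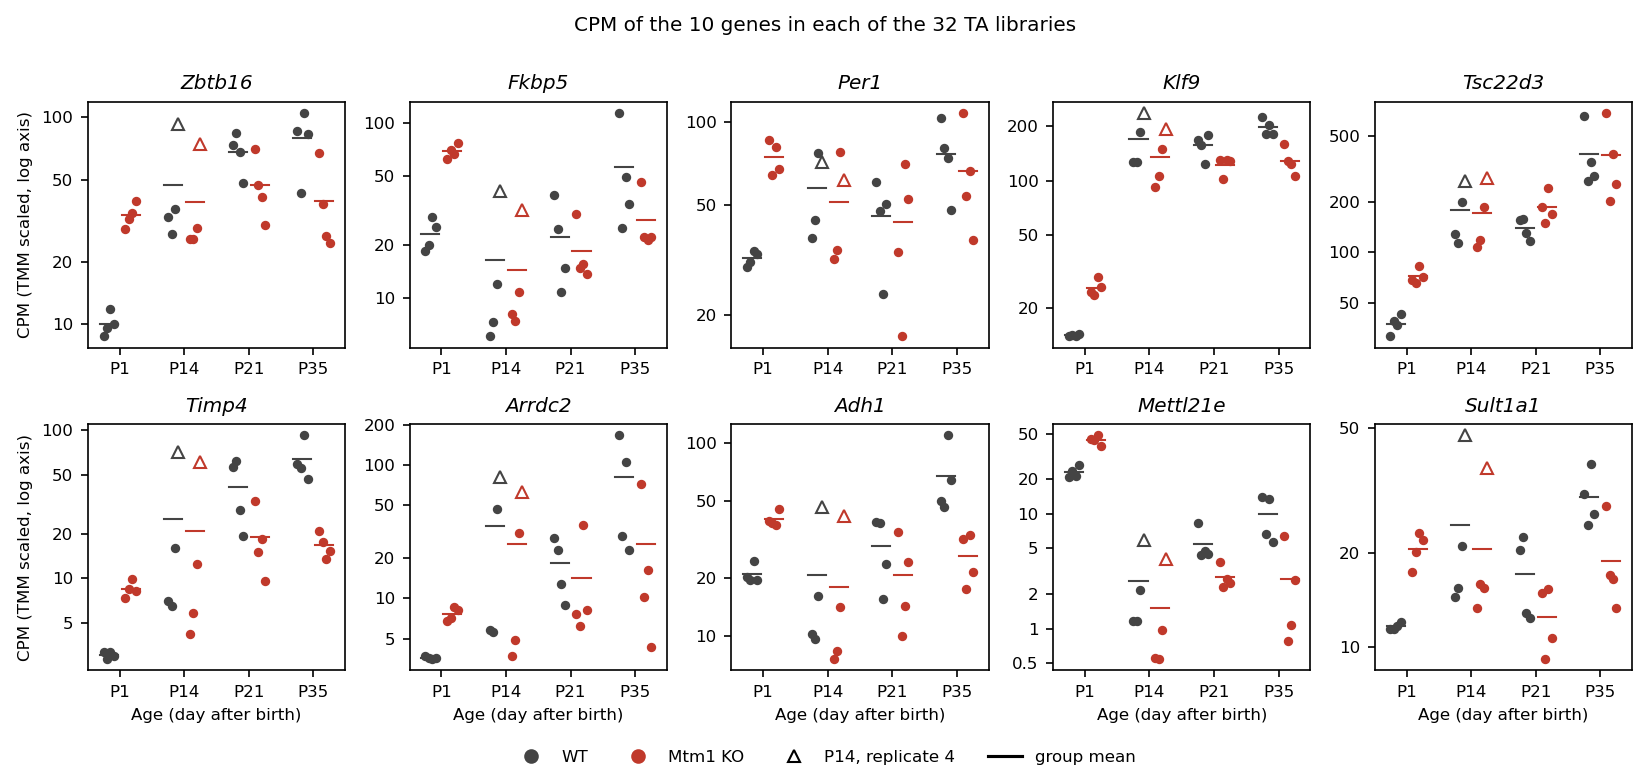
CPM of each of the 10 genes (log axis) in each library against age, with WT in gray and *Mtm1* KO in red, *n*=4 per group, bars for group means and open triangles for the P14 libraries of replicate 4. At P1, the age that chose the genes, the 2 genotypes are apart and tight. From P14 they overlap for most genes, and the P14 triangles are the highest P14 points of their genotype for 9 of the 10 genes.

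Levels at P1 and P14 are given as values, since P1 chose the genes. *Klf9* had a WT mean of 14.0 ± 0.198 CPM (SD, *n*=4) at P1 and 170 ± 53.8 CPM at P14, and *Tsc22d3* 37.3 ± 4.70 and 179 ± 71.4 CPM. *Mettl21e* went the other way, with 23.1 ± 2.69 CPM in WT and 43.9 ± 3.88 CPM in KO at P1 against 2.59 ± 2.25 and 1.53 ± 1.69 CPM at P14. *Fkbp5* in KO was at 68.8 ± 6.25 CPM at P1 and 14.5 ± 11.5 CPM at P14. These ratios depend on the scaling. With library totals in place of TMM factors, P14 over P1 in WT was 6.90-fold instead of 12.1-fold for *Klf9*, and P1 over P14 in WT was 16.04-fold instead of 8.89-fold for *Mettl21e*.

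P14 was the age at which KO mice still show little disease, and at which the median spread of the 10 genes among mice of a genotype was widest. *Timp4* was at 7.09, 6.50, 15.9 and 71.7 CPM in WT replicates 1 to 4 and at 4.24, 5.82, 12.5 and 61.2 CPM in KO replicates 1 to 4. *Arrdc2* was at 5.83, 5.61, 46.9 and 81.6 CPM in WT, with 3.71, 4.86, 31.1 and 63.3 CPM in KO. *Fkbp5* was at 6.05, 7.33, 12.1 and 40.7 CPM in WT, with 8.13, 7.38, 10.8 and 31.6 CPM in KO. In each of these genes replicate 4 was the high library and replicate 3 the next, in both genotypes alike. *Adh1* was at 10.2, 9.65, 16.04 and 46.5 CPM in WT, with 7.58, 8.35, 14.1 and 41.7 CPM in KO. *Mettl21e* was at 1.17, 1.16, 2.15 and 5.89 CPM in WT, with 0.556, 0.547, 0.970 and 4.04 CPM in KO.

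Replicate 4 was the highest library in both genotypes for 9 of the 10 genes, against 24% of all genes. The exception was *Per1*, which was highest in replicate 3 (77.2 CPM in WT, with 77.6 CPM in KO) with replicate 4 next (71.4 and 61.6 CPM). Relative to the mean of replicates 1 and 2, replicate 4 was 14.3-fold (WT) and 14.8-fold (KO) higher for *Arrdc2*, 10.6-fold and 12.2-fold for *Timp4*, 5.05-fold and 7.33-fold for *Mettl21e*, and 1.88-fold and 1.95-fold for *Klf9*. The within-group SD (log2) had a median of 0.85 over the 10 genes in WT and 0.83 in KO, and all 10 exceeded the 95th percentile of all genes (0.40 in WT and 0.43 in KO). Other transcripts differed in those 2 libraries too. *Nr3c1* had its lowest P14 value there, 155 CPM in WT (the other 3 at 185 to 191 CPM) and 164 CPM in KO (the other 3 at 180 to 187 CPM). Fibroblast marker sums were lowest there (4073 CPM in WT against 6886 to 8042 CPM, and 3612 CPM in KO against 5624 to 7077 CPM), and adipocyte sums were highest (472 CPM in WT against 268 to 273 CPM, and 420 CPM in KO against 223 to 320 CPM). Muscle fibre sums were highest there too (186523 CPM in WT against 138010 to 171624 CPM, and 163987 CPM in KO against 104750 to 151908 CPM). The labels give no litter, time of day or batch for these mice, and the part of any of these in the pattern was not tested.

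**Figure D2:**
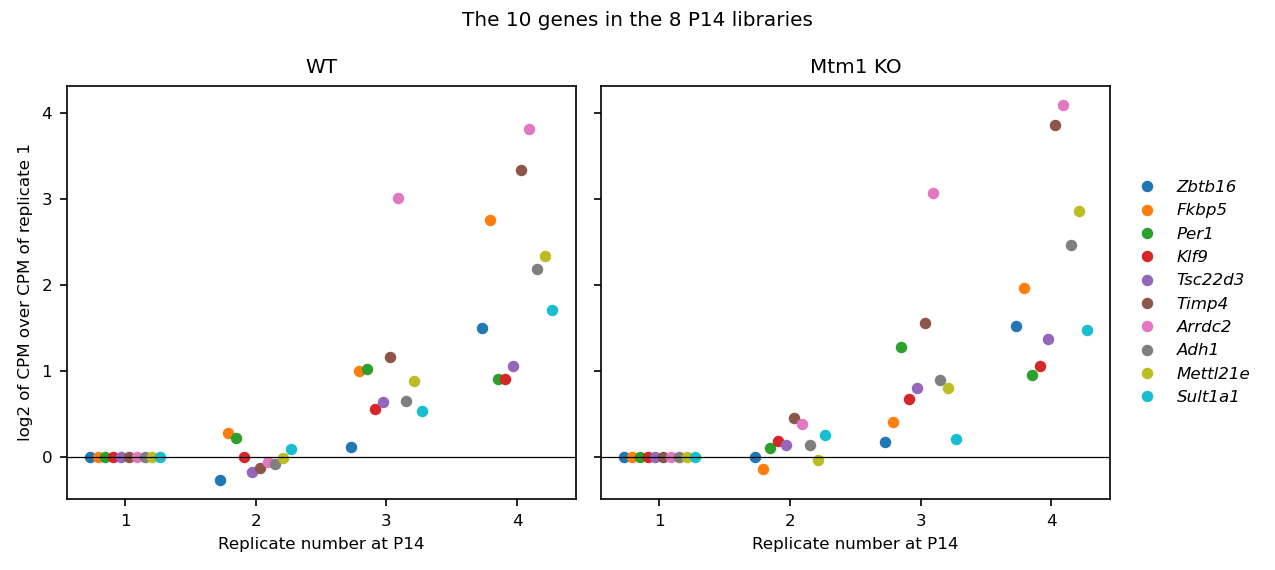
The 8 P14 libraries by replicate number (horizontal axis), with each gene as log2 of its CPM over that in replicate 1 of the same genotype (vertical axis, 0 for replicate 1), WT left and *Mtm1* KO right. Replicates 1 and 2 lie together near 0 and replicate 4 lies highest for all genes but *Per1*, with *Arrdc2* and *Timp4* at the top in both genotypes.

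KO against WT at P14 gave 0 of 10 genes past the thresholds (edgeR's quasi-likelihood test, 4 against 4; 0.0318% of 15728 genes were), with 0 of 10 at an unadjusted *P*<0.05 (6.82% of all genes) and 0 by DESeq2. All 10 estimates were below 0, with a median log2 fold change of -0.27 against 0.00 for all genes, and all 10 overlapped between genotypes. Muscle fibre markers also had 8 of 8 estimates below 0 at P14, with a median of -0.26 and 0 called, and their sums were lower in KO in each of the 4 same-numbered pairs; their part in the values of the 10 genes was not tested. The intervals were wide: *Timp4* had a log2 fold change of -0.28 with a 95% interval of -2.27 to 1.70, *Arrdc2* -0.45 (-2.56 to 1.66) and *Klf9* -0.32 (-0.86 to 0.22). The test therefore left room for large differences of either sign. In this unpaired fit, leaving out WT replicate 4 alone took the estimate of *Timp4* to 1.08 and that of *Fkbp5* to 0.76, neither past the thresholds, although between mice of the same number *Timp4* was lower in KO in 4 of 4.

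Same-numbered P14 libraries of the 2 genotypes deviated from their group means together (correlation over genes of 0.25, 0.29, 0.19 and 0.59 for replicates 1 to 4), so a fit blocked by that number was set beside the unpaired one. With the block, *Mettl21e* was past the thresholds and lower in KO (log2 fold change -0.90 ± 0.15 SE, edgeR adjusted *P*=0.0083), 1 of 10 where 0.623% of all genes were. *Klf9* (-0.33 ± 0.04, adjusted *P*=0.0035) and *Arrdc2* (-0.46 ± 0.07, adjusted *P*=0.0047) passed the *P* threshold and not the fold threshold. In the same fit *Zbtb16* was at -0.27 (adjusted *P*=0.016), *Timp4* at -0.35 (adjusted *P*=0.032) and *Adh1* at -0.24 (adjusted *P*=0.036), while *Fkbp5* was at -0.06 (adjusted *P*=0.80) and *Tsc22d3* at -0.07 (adjusted *P*=0.50). An unadjusted *P*<0.05 was reached by 8 of the 10, against 21.8% of all genes. Compared within a number, KO was below WT in 4 of 4 pairs for *Zbtb16*, *Klf9*, *Timp4*, *Arrdc2*, *Adh1* and *Mettl21e*, as it was for 12.4% of all genes. The 10 genes share these libraries and vary together, so their pairs are not independent. The labels call same-numbered mice replicates and do not say what they share.

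At P21, when KO mice are becoming weak, 0 of the 10 genes were past the thresholds by edgeR (4.67% of 15179 genes were), 4 had an unadjusted *P*<0.05 (35.1% of all genes), and DESeq2 called 1, *Mettl21e* (6.86% of all genes). Of the estimates, 9 were below 0, with a median of -0.39 against 0.01 for all genes. Muscle fibre markers had 8 of 8 below 0 (median -0.30, 0 called), and their part was not tested. *Mettl21e* was the 1 gene whose libraries did not overlap, at 3.83, 2.29, 2.73 and 2.49 CPM in KO, with 8.30, 4.38, 4.73 and 4.43 CPM in WT (log2 fold change -0.93 ± 0.24, edgeR adjusted *P*=0.022); KO lower without overlap was seen in 11% of all genes. *Timp4* was at 33.2, 15.0, 18.5 and 9.54 CPM in KO, with 56.0, 61.8, 28.9 and 19.3 CPM in WT, an overlap set by KO replicate 1, which exceeded WT replicates 3 and 4 (-1.11 ± 0.43, adjusted *P*=0.093). *Klf9* was at 130.5, 102, 129.9 and 129 CPM in KO, with 168, 158, 124 and 178 CPM in WT (-0.34 ± 0.12, adjusted *P*=0.063).

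*Tsc22d3* was the single estimate above 0 at P21, with 186, 150.02, 244 and 169 CPM in KO against 157, 159, 130.0 and 117 CPM in WT (log2 fold change 0.43 ± 0.15, adjusted *P*=0.076). It overlapped between genotypes through KO replicate 2. *Arrdc2* in KO was between 6.24 and 8.14 CPM in 3 libraries and at 35.3 CPM in replicate 3, above all 4 WT libraries (8.94 to 28.6 CPM). *Per1* ranged from 16.8 to 70.3 CPM in KO and from 23.8 to 60.4 CPM in WT, a difference of -0.05 on the log2 scale with a 95% interval of -0.83 to 0.73.

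At P35, the end stage of the disease, 3 of the 10 genes were past the thresholds, each lower in KO, where 7.52% of 15595 genes were lower; 0 were higher (8.49% of all genes). *Timp4* had the largest change of the 3, at 21.0, 17.5, 13.6 and 15.2 CPM in KO, with 59.4, 55.2, 92.3 and 47.1 CPM in WT, without overlap (log2 fold change -1.89 ± 0.22 SE, or 3.71-fold lower, edgeR adjusted *P*=0.00025). *Adh1* was at 31.5, 17.5, 33.0 and 21.4 CPM in KO, with 50.02, 46.5, 109 and 64.1 CPM in WT (-1.36 ± 0.30, 2.57-fold lower, adjusted *P*=0.0057). *Klf9* was at 160, 129, 123 and 107 CPM in KO, with 227, 182, 204 and 182 CPM in WT (-0.59 ± 0.13, 1.51-fold lower, adjusted *P*=0.0058). These were also the 3 genes that did not overlap, KO lower, which 20.4% of all genes did.

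The P35 calls depended on the processing. With library totals in place of TMM factors, all genes had a median log2 fold change of 0.44 at P35, *Klf9* was at -0.19 (adjusted *P*=0.24), *Adh1* at -0.97 (adjusted *P*=0.019) and *Timp4* at -1.495 (adjusted *P*=0.00043), so *Timp4* alone of the 10 was past the thresholds, as were 2.09% of all genes in the lower direction. Leaving out 1 library at a time, *Timp4* ranged from -2.02 to -1.66 and passed each time. In 1 fit of all 32 libraries, however, *Timp4* (-1.92, adjusted *P*=0.018) and *Adh1* (-1.38, adjusted *P*=0.021) missed the *P* threshold, and *Mettl21e* (-1.87, adjusted *P*=0.0068) passed. With no filter on low counts *Klf9*, at -0.583, was just under the fold threshold. Leaving out libraries, *Adh1* missed the *P* threshold without WT replicate 4, KO replicate 2 or KO replicate 4 (adjusted *P*=0.013, 0.013 and 0.018). *Klf9* missed it without WT replicate 1, 3 or 4 or KO replicate 2, 3 or 4 (adjusted *P* from 0.011 to 0.016).

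The other P35 estimates were also mostly below 0, 9 of 10 in all with a median of -0.99 against 0.04 for all genes, and 6 of 10 had an unadjusted *P*<0.05 (50.3% of all genes). *Mettl21e* was at 6.36, 0.782, 1.09 and 2.67 CPM in KO, with 13.9, 6.67, 13.4 and 5.72 CPM in WT (-1.85 ± 0.61, adjusted *P*=0.035). *Zbtb16* was at 67.4, 37.9, 26.7 and 24.7 CPM in KO, with 86.2, 43.2, 105 and 83.1 CPM in WT (-0.99 ± 0.35, adjusted *P*=0.046). For both, KO replicate 1 was the high KO library that overlapped WT. *Arrdc2* was at 72.3, 10.2, 16.3 and 4.29 CPM in KO, with 168, 29.3, 106 and 23.3 CPM in WT, with a 95% interval of -3.37 to 0.09 on the log2 scale. *Sult1a1* was at -0.66 ± 0.23 (adjusted *P*=0.043) and *Fkbp5* at -0.98 ± 0.45 (adjusted *P*=0.11).

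KO replicate 1 was the highest of the 4 KO libraries for 9 of the 10 genes at P35, where 25.7% of all genes were highest in it. WT replicate 1 was the highest of the 4 WT libraries for 6 of the 10, where 31% of all genes were. Without KO replicate 1 and with WT replicate 1 kept, 6 of the 10 were past the thresholds, against 7.26% of all genes lower in that fit. This added *Zbtb16* (-1.40, adjusted *P*=0.0061), *Mettl21e* (-2.70, adjusted *P*=0.0040) and *Sult1a1* (-0.93, adjusted *P*=0.0034) to the 3 named. *Tsc22d3* and *Per1* had estimates close to 0. *Tsc22d3* was at 687, 202, 388 and 258 CPM in KO, with 653, 269, 349 and 289 CPM in WT (0.00 ± 0.40, 95% interval -0.78 to 0.79). *Per1* was at 108, 54.0, 66.3 and 37.4 CPM in KO, with 104, 80.5, 73.7 and 47.9 CPM in WT (-0.18, 95% interval -0.80 to 0.44). Adipocyte markers moved at this age as well, with 5 of 8 past the thresholds and higher in KO (sums of 404 to 591 CPM against 240.4 to 372 CPM in WT). Muscle fibre markers had 8 of 8 estimates below 0, with a median of -0.59, 1 called and 4 without overlap (sums of 68348 to 104604 CPM in KO against 104736 to 178377 CPM in WT). The part of either list in the values of the 10 genes was not tested.

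**Figure D3:**
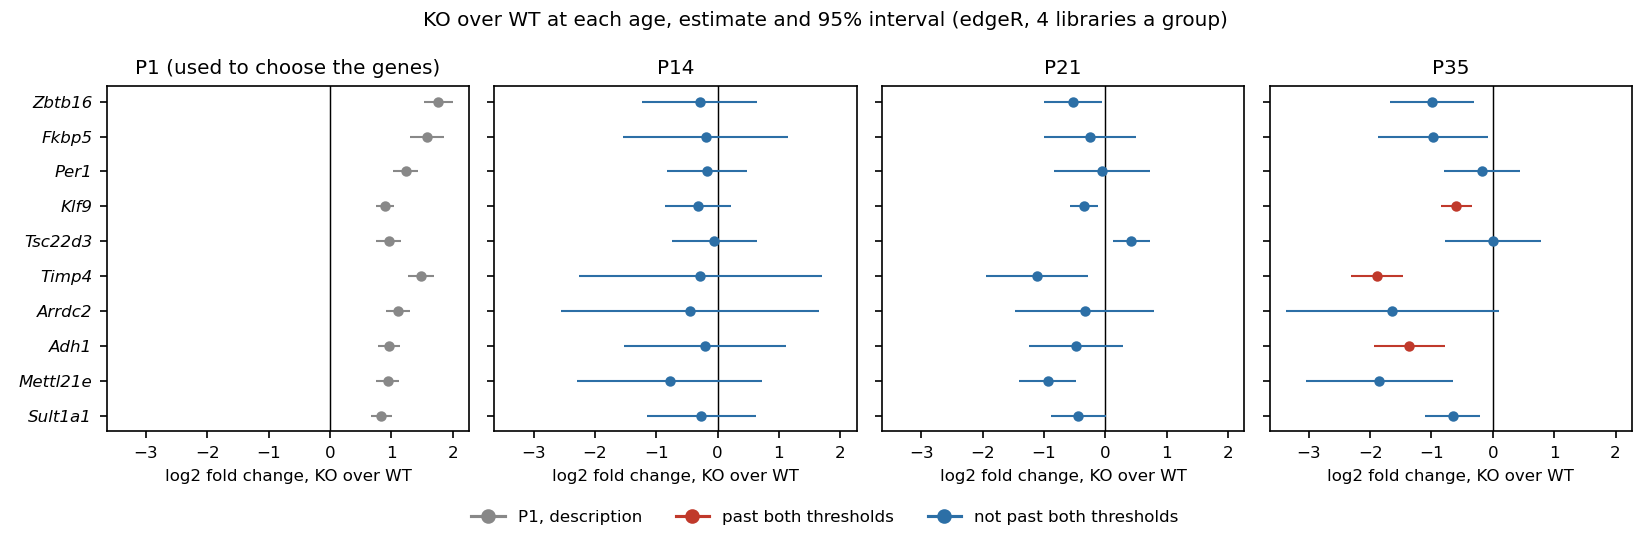
Log2 fold change of KO over WT (horizontal axis) with its 95% interval for each gene at each age, from separate edgeR fits of 4 against 4 libraries, with P1 in gray because it chose the genes, red for genes past both thresholds and blue for the others. The P1 estimates lie between 0.84 and 1.77, all P14 estimates lie below 0 with wide intervals, and *Timp4*, *Adh1* and *Klf9* are the red genes at P35.

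Whether the genotype difference changed between the later ages was tested as an interaction in a fit of all 32 libraries. The P1 libraries, which chose the genes, entered that fit's estimate of spread, so its *P*-values are not free of the choice. From P14 to P21, P21 to P35 and P14 to P35, 0 of the 10 genes passed an adjusted *P*<0.01 (0.425%, 0.463% and 8.53% of 18583 genes did), 0 had an unadjusted *P*<0.05, and DESeq2 called 0. The largest from P14 to P35 was *Timp4*, with a change in log2 fold change of -1.64 ± 0.90 (adjusted *P*=0.22). Blocked by replicate number, *Timp4* passed in that comparison (-1.52 ± 0.29, adjusted *P*=0.0019), 1 of 10 where 10.3% of all genes did. At P35 same-numbered libraries correlated in some replicates only, so the block is less well founded there than at P14.

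Changes with age were tested within each genotype over the later ages, again in a fit whose estimate of spread included the P1 libraries. From P21 to P35 in WT all 10 estimates were above 0, with a median of 0.84 against 0.00 for all genes, and 1 gene, *Tsc22d3*, was past the thresholds, as were 2.23% of all genes in that direction. *Tsc22d3* went from 141 ± 20.4 CPM (SD, *n*=4) to 390 ± 179 CPM (log2 fold change 1.47 ± 0.33 SE, adjusted *P*=0.0027). It missed the *P* threshold without WT P21 replicate 3 or 4 or WT P35 replicate 1 (adjusted *P*=0.012, 0.011 and 0.022). In KO over the same ages 0 of 10 passed by edgeR (6.34% of all genes did), 1 had an unadjusted *P*<0.05 and DESeq2 called 1; *Tsc22d3* was at 1.04 ± 0.33 (adjusted *P*=0.020).

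P14 to P21 gave 0 of 10 in WT (6.83% of all genes past the thresholds) and 0 of 10 in KO (9.16%), with 0 and 1 at an unadjusted *P*<0.05 and 0 and 0 by DESeq2. This rested on the replicate 4 libraries of P14. With both left out, a choice made after the data were seen, WT had 4 of 10 past the thresholds (8.76% of all genes), which were *Timp4* (2.10 ± 0.41, adjusted *P*=0.00046), *Mettl21e* (1.89 ± 0.47, adjusted *P*=0.0039), *Zbtb16* (1.11 ± 0.29, adjusted *P*=0.0058) and *Adh1* (1.30 ± 0.36, adjusted *P*=0.0093), each higher at P21. KO then had 1, *Mettl21e* (2.03 ± 0.52, adjusted *P*=0.0043; 11.4% of all genes).

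Mouse-to-mouse spread stayed wide after P14. At P21 the median within-group SD (log2) of the 10 genes was 0.51 in WT and 0.51 in KO, against 0.13 and 0.13 for all genes, and 6 of 10 exceeded the 95th percentile of all genes in each genotype. At P35 it was 0.55 in WT and 0.58 in KO, with 7 and 6 of 10 above the 95th percentile. *Arrdc2* ranged 7.20-fold among the 4 WT mice and 16.8-fold among the 4 KO mice at P35. *Klf9* ranged 1.25-fold and 1.498-fold. Over the 24 libraries of P14, P21 and P35, each gene was correlated with the mean of the other 9 (Pearson *r* of standardized log2 CPM from 0.63 for *Per1* to 0.89 for *Arrdc2*), a description over libraries that share age and genotype.

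**Figure D4:**
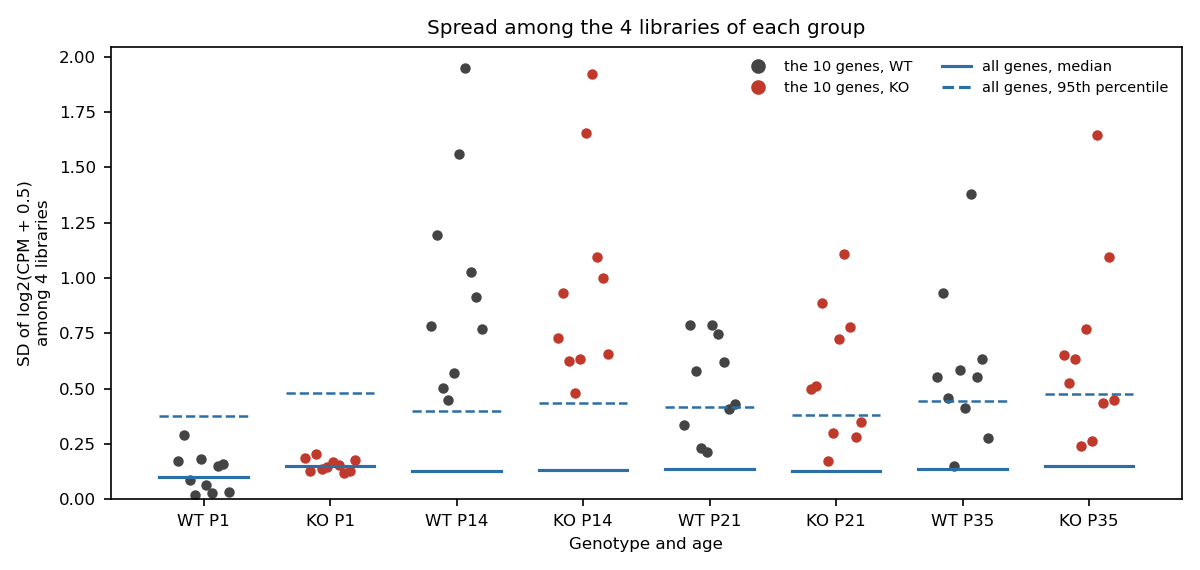
SD of log2(CPM + 0.5) among the 4 libraries of each genotype and age for each of the 10 genes (points, WT in gray and KO in red), with the median (solid line) and 95th percentile (dashed line) of all 18583 genes. All 10 points lie under the dashed line in both groups of P1, the age that chose the genes, and above it in both P14 groups.

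Compared per kilobase of exon, the order of the 10 genes also changed with age. In WT at P1 *Adh1* (9.32 CPM per kb), *Tsc22d3* (8.60), *Sult1a1* (7.73), *Mettl21e* (5.82) and *Per1* (5.70) were the highest, and *Timp4* (0.519) the lowest. At P35 in WT *Tsc22d3* (89.8 CPM per kb) and *Klf9* (41.3) were the highest and *Mettl21e* (2.51) was the lowest. In KO at P35 *Tsc22d3* (88.4 CPM per kb) and *Klf9* (26.9) came first and second as well, and *Mettl21e* (0.688) was again lowest. Neighbours such as *Adh1* and *Tsc22d3* at P1 overlapped in CPM per kb within their SD.

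The receptor and the proteins that act with it were read next, from a list of 19 genes of which 18 were tested. *Nr3c1* itself overlapped between genotypes at P1 (82.5 ± 9.68 CPM in KO and 85.8 ± 5.09 CPM in WT, SD, *n*=4), P14 (178 ± 9.92 and 180 ± 16.8 CPM) and P21 (155 ± 12.5 and 163 ± 18.8 CPM), with log2 fold changes of -0.04, -0.02 (adjusted *P*=0.995) and -0.06 (adjusted *P*=0.70). At P35 it was at 121 ± 6.10 CPM in KO and 160 ± 17.8 CPM in WT (-0.38 ± 0.09, adjusted *P*=0.0086), a difference under the fold threshold. With library totals the P35 means were 120.4 CPM in KO and 118.6 CPM in WT, so that difference rested on the scaling. *Hsd11b1*, the enzyme that regenerates active glucocorticoid inside cells, was at 1.95 to 2.05 CPM in KO and 6.69 to 9.31 CPM in WT at P35 (-1.996 ± 0.13, adjusted *P*=2.6e-05), and at P21 it was at -0.73 ± 0.20 (adjusted *P*=0.030) without overlap. Its genotype difference changed from P14 to P35 (interaction -1.86 ± 0.43, adjusted *P*=0.0031).

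Of this list 0 of 18 were past the thresholds at P14 and P21 by edgeR, with 2 and 10 at an unadjusted *P*<0.05 (6.82% and 35.1% of all genes). DESeq2 called 0 at P14 and 1 at P21 (6.86% of all genes at P21). At P35 5 of 18 were lower in KO (7.52% of all genes were), with a list median of -0.37 against 0.04 for all genes. Those were *Hsd11b1*, the coactivators *Ep300* (-0.78, adjusted *P*=0.0023) and *Ncoa3* (-0.63, adjusted *P*=0.0098), the corepressor *Ncor1* (-0.63, adjusted *P*=0.00086) and *Abcb1a* (-0.67, adjusted *P*=0.0027), a drug and steroid exporter. The chaperone *Hsp90aa1* was at 0.57 ± 0.11 (adjusted *P*=0.0036) at P35, under the fold threshold, and *Hsp90ab1* at 0.50 ± 0.08 (adjusted *P*=0.0032) at P21.

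A list of 40 other glucocorticoid responsive genes, written with earlier results of these data known, gave the wider setting. At P1, the age that chose the 10 genes, 35 of the 40 had an estimate above 0, as 52.8% of all genes did. The list median was 0.38 against 0.01 for all genes. By edgeR 0 were called and by DESeq2 11 (0.514% of all genes by DESeq2), and 18 did not overlap, KO higher (3.85% of all genes). *Fam107a* (1.57 ± 0.21), which encodes an actin-associated protein, and *Klf15* (1.37 ± 0.20), a transcription factor of muscle amino acid use, had the highest P1 estimates, whereas *Angptl4* was at -1.20 ± 0.39. At P14 0 of 38 were past the thresholds (3 with an unadjusted *P*<0.05, 0 by DESeq2, 2 blocked by replicate number) and the list median was -0.05.

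At P21 4 of 39 of these genes were higher in KO (3.18% of all genes were) and 0 lower (1.5%), and at P35 7 of 40 were higher (8.49%) and 3 lower (7.52%). The risers at P21 included the cell cycle inhibitor *Cdkn1a* (3.38 ± 0.19, adjusted *P*=3.1e-05), the ubiquitin ligase *Trim63* (1.36 ± 0.11, adjusted *P*=0.00014) and the metallothionein *Mt2* (3.26 ± 0.27, adjusted *P*=0.00016). All 3 respond to other stimuli as well. *Cdkn1a* was also higher at P35 (247 ± 81.9 CPM in KO and 17.6 ± 8.24 CPM in WT), as were *Trim63* (403 ± 59.9 and 169 ± 22.9 CPM) and *Anxa1* (53.9 ± 6.14 and 21.8 ± 1.28 CPM), which encodes an anti-inflammatory phospholipid-binding protein. The 3 that were lower at P35 were the kinase *Sgk1* (-1.30, adjusted *P*=0.0054), the phosphatidate phosphatase *Lpin1* (-1.12, adjusted *P*=0.00023) and myostatin, *Mstn* (-2.17, adjusted *P*=0.0026). The list median at P35 was 0.13, with called genes in both directions.

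Cytokine and adhesion genes that glucocorticoids are known to repress numbered 12, of which 7 to 10 were tested at each age. At P1 1 of 10 estimates was above 0 and the median was -0.40, with *Ccl2* (-1.08 ± 0.18), *Ccl7* (-1.13 ± 0.25) and *Cxcl10* (-0.97 ± 0.26) lower in KO without overlap; edgeR called 0 and DESeq2 2. At P14 0 of 7 passed (1 with an unadjusted *P*<0.05, 0 by DESeq2). *Cxcl10* was higher in KO at P21 (3.74 ± 0.27, adjusted *P*=8.3e-05), and 4 of 8 were higher at P35 (8.49% of all genes were), namely *Ptgs2* (2.16 ± 0.23, adjusted *P*=0.00020), *Cxcl10* (2.77 ± 0.39, adjusted *P*=0.00065), *Icam1* (0.99 ± 0.15, adjusted *P*=0.00085) and *Ccl2* (2.25, adjusted *P*=0.0075). Macrophage markers moved too, 2 of 6 at P21 and 3 of 6 at P35 past the thresholds in KO (sums of 86.8 to 107 CPM against 76.8 to 88.8 CPM at P21, and 73.3 to 104 CPM against 62.4 to 78.1 CPM at P35), and their part was not tested.

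The circadian clock was read because *Per1* belongs to it. Among 19 clock genes, *Per2* stood at 0.98 ± 0.22 at P1, with 13.2 ± 2.39 CPM in KO and 6.77 ± 2.05 CPM in WT. *Nr1d1*, which encodes a repressor of the loop, was at -0.53 ± 0.23 at P1 with libraries that overlapped. At P14 and P21 0 of 19 passed (1 and 1 with an unadjusted *P*<0.05, 0 and 0 by DESeq2). At P35 5 of 19 were lower in KO (7.52% of all genes were), among them *Nr1d2* (-0.74 ± 0.08, adjusted *P*=0.00021) and *Cry1* (-0.67 ± 0.14, adjusted *P*=0.0049), and 2 with library totals. *Arntl*, the clock activator, differed widely among mice at P21, with 21.4 ± 15.3 CPM in KO and 12.3 ± 10.95 CPM in WT.

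Paralogues of the 10 genes were read last among the lists. Of 18 tested, 0 passed at P1 and P14 by edgeR, with 5 and 2 at an unadjusted *P*<0.05 (6.82% of all genes at P14). DESeq2 called 1 at P1 (0.514% of all genes) and 1 at P14, and the fit blocked by replicate number 1 at P14 (0.623%). At P21 2 were higher (3.18% of all genes were) and 1 lower (1.5%). At P35 4 were higher (8.49%) and 1 lower (7.52%). *Timp1*, the inducible relative of *Timp4*, was higher in KO at P21 (11.5 ± 2.83 CPM in KO and 1.43 ± 0.69 CPM in WT, adjusted *P*=0.00058) and P35 (22.7 ± 7.42 and 2.68 ± 1.04 CPM, adjusted *P*=0.00019), whereas *Timp4* was lower at P35. *Tsc22d4* was higher at P35 (1.65 ± 0.11, adjusted *P*=2.6e-05), whereas *Tsc22d3* was at 0.00. *Mettl21c*, a muscle methyltransferase, was lower at P21 (-1.57 ± 0.30, adjusted *P*=0.0073) and P35 (-2.02, adjusted *P*=0.0047), where *Mettl21e* was at -0.93 and -1.85.

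The genes whose pattern was most like that of the 10 were sought over the 24 libraries of P14, P21 and P35, by the Pearson correlation of log2 CPM with the mean of the 10 standardized genes. The 5 highest were *Jade2* (*r*=0.958), *Slc4a8* (0.957), *Lnx1* (0.951), *Map3k6* (0.947) and *Noct* (0.938). *Map3k6*, a kinase gene of the list above, was at 2.04, 1.82, 5.14 and 14.6 CPM in WT, with 1.87, 1.64, 3.23 and 11.8 CPM in KO at P14, with replicate 4 high in both. *Slc4a8*, a sodium bicarbonate transporter gene, was at 2.01, 1.69, 4.62 and 10.1 CPM in WT, with 1.28, 1.40, 2.44 and 8.94 CPM in KO. The correlation did not use P1, but the 10 genes behind it were chosen there, so the P1 values of these 5 are a description. They were 0.80 ± 0.14 for *Jade2*, 0.83 ± 0.13 for *Slc4a8*, 0.56 ± 0.32 for *Lnx1*, 0.88 ± 0.21 for *Map3k6* and 0.28 ± 0.15 for *Noct* on the log2 scale, each with a higher mean in KO and none called.

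Positions of the 3 genes that were lower at P35, in GRCm38, were chr6:115241892-115252205 on the minus strand for *Timp4*, chr3:138260991-138290698 on the plus strand for *Adh1* and chr19:23141226-23168134 on the plus strand for *Klf9*. *Mettl21e* lies at chr1:44204070-44218961 on the minus strand. The *Timp4* gene lies within *Syn2* on the opposite strand, *Sult1a1* overlaps *Sgf29*, *Adh1* overlaps the antisense gene *Gm16559* and *Mettl21e* overlaps *Gm15833*, a processed pseudogene. These overlaps are of whole gene spans, and shared exons were not looked for. The sources used here do not state whether counting used the strand, so whether such pairs share counted reads was not tested. *Syn2* was at 1.73 to 1.9599 CPM in KO and 2.70 to 3.94 CPM in WT at P35, and *Sgf29* at 8.32 to 10.2 and 11.4 to 14.8 CPM. *Gm16559* was listed at 0 from P14 onwards, and *Gm15833* was at 0.689 to 1.79 CPM in KO and 2.45 to 4.31 CPM in WT at P35, but at 0 to 0.0234 CPM at P1, where *Mettl21e* had its highest means.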

How the data were processed

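TA muscle RNA was sequenced in 32 libraries (poly(A) selected, strand-specific), *n*=4 per genotype and age, and samples were grouped by the genotype, age and replicate number in the labels. The authors aligned reads to GRCm38 with STAR 2.6.1 and deposited expected counts per gene made with RSEM 1.2.22, per the submitters' processing notes; the methods name HTSeq. The deposited values are not scaled between libraries, and 4.26% of them are not whole. They were rounded. Symbols came from GENCODE annotation of GRCm38 (54723 of 54838 genes), and 0 columns were left unused. Replicates differed by more than sampling noise in every pair.

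edgeR 4.0.16 (R 4.3.3) with TMM factors, filterByExpr and the quasi-likelihood test was fitted separately at each age, and over all 32 libraries for interactions and for ages within a genotype. In every fit of all 32 libraries those of P1 entered the estimate of spread. *P*-values are two-sided and adjusted by Benjamini-Hochberg over all genes tested. Genes were called at adjusted *P*<0.01 and a change of over 1.5-fold (a log2 fold change of 0.585), interactions at adjusted *P*<0.01 alone. SE is the log2 fold change over the square root of F, and 95% intervals are ±1.96 SE. Printed CPM use 1 set of TMM factors over the 32 libraries. The fit was tested on simulated data before use. Alternatives were DESeq2 1.42.0, its size factors, library totals, no filter, edgeR's adjusted deviances, 1 fit of all libraries, the replicate block and leaving out each library; leaving out both P14 replicate 4 libraries was added after the data were seen. Same-numbered libraries of the 2 genotypes correlated in their deviations in every replicate at P14 (each *r* over 0.1). At P21 (-0.0079 to 0.19) and P35 (-0.080 to 0.17) they did so in some replicates only, and at P1 (-0.32 to -0.0018) in none. The labels number replicates, and the methods give *n*=4 per genotype for P14, P21 and P35. Each library was taken as a separate mouse, so *P*-values are read as measuring the spread between mice. Counts cover counting error only, since no molecular identifiers are described.

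The 10 genes and all lists were chosen with earlier results of these data known. Genes named are the 10 members, *Mtm1*, *Nr3c1* and *Hsd11b1*, per list and age up to 3 called genes of smallest adjusted *P* and up to 3 others of largest change, and the 5 genes most alike; *Sgk1*, *Lpin1*, *Mstn*, *Ncoa3*, *Abcb1a*, *Ccl2* at P35 and *Mettl21c* at P35 were named after their values were seen. A gene that this rule would name is not reported here. Endothelial markers (2 of 5 lower in KO at P35, none called before) and erythroid markers (0 of 5 called at any age) were also read, and fibroblast markers gave 0 of 6 called at each age. Muscle fibre markers gave 1 of 8 lower in KO at P35 and 0 earlier, and keratinocyte markers 3 of 4 tested higher at P21 and 3 of 5 at P35.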

Additional observations from a re-analysis of the deposited data

Results flagged for a closer look

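Within groups of 4 libraries, a highest or lowest value was marked where its gap to the next, over the range of the group, was above Dixon's 95% critical value. Of the 80 groups (10 genes in 8 groups), 13 were marked, where chance marks about 1 in 20, and 7 of the 13 were among the 20 groups of P14. In KO at P14 replicate 4 was the high library for *Zbtb16* (gap over range 0.930), *Fkbp5* (0.858), *Timp4* (0.855), *Mettl21e* (0.879) and *Sult1a1* (0.892), and in WT at P14 for *Zbtb16* (0.872) and *Timp4* (0.855). The 10 genes share these libraries, so the marks are not independent. At the other ages the high libraries were KO P21 replicate 1 for *Fkbp5* (0.886), KO P35 replicate 1 for *Fkbp5* (0.963), KO P21 replicate 3 for *Arrdc2* (0.935), WT P1 replicate 3 for *Adh1* (0.852) and WT P21 replicate 1 for *Mettl21e* (0.909). *Klf9* in KO at P21 had a low library, replicate 2 (0.952).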

How the results depend on the processing

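Of the number of the 10 genes past the thresholds, KO against WT at P1 went from 8 to 1 with the replicate block and to 0 with 1 fit of all 32 libraries. At P14 the replicate block gave 1 instead of 0, at P21 it gave 1 and DESeq2 gave 1 instead of 0, and at P35 library totals gave 1 instead of 3. The interaction from P14 to P35 gave 1 with the replicate block instead of 0. KO at P35 against P21 gave 1 with DESeq2 instead of 0. Without both P14 replicate 4 libraries, P21 against P14 gave 4 in WT and 1 in KO instead of 0. Leaving out 1 library at a time, the count ran from 0 to 8 at P1, from 1 to 6 at P35, from 0 to 1 for WT at P35 against P21 and from 0 to 1 for KO at P35 against P21, and stayed at 0 at P14 and P21.

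Estimates that changed sign were not past the thresholds in either fit. Leaving out 1 library at a time, log2 fold changes of KO over WT at P14 ran from -0.82 to 0.27 for *Zbtb16*, -0.92 to 0.76 for *Fkbp5*, -0.38 to 0.21 for *Tsc22d3*, -1.76 to 1.08 for *Timp4*, -1.41 to 0.40 for *Arrdc2*, -1.05 to 0.57 for *Adh1*, -1.90 to 0.0063 for *Mettl21e* and -0.72 to 0.27 for *Sult1a1*. The lower end of each came without KO replicate 4 and the upper end without WT replicate 4. At P21 they ran from -0.58 to 0.13 for *Fkbp5* and -0.39 to 0.22 for *Per1*, and at P35 from -0.52 to 0.0012 for *Per1* and -0.44 to 0.37 for *Tsc22d3*. With library totals *Tsc22d3* at P14 was at 0.028, and *Per1* at 0.16 at P21 and 0.22 at P35. Without both P14 replicate 4 libraries *Fkbp5* at P14 was at 0.047. *Tsc22d3* at P35 was at -0.017 with DESeq2, -0.017 with its size factors, -0.061 with the replicate block and -0.022 with 1 fit of all libraries. The cause of these changes was not tested.

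With the replicate block *Mettl21e* at P21 passed the thresholds (-0.91), as did *Arrdc2* at P35 (-1.93). Same-numbered libraries correlated in some replicates only at those ages, and the labels do not say whether the numbers pair the mice. The block changed no other call of KO against WT among the 10 genes at P21 and P35. Of 20 counts over the gene lists at P1 to P35, 13 moved by over 1.5 times under 1 setting or more. Outside those given in the report, the 40 other glucocorticoid responsive genes at P21 had 8 past the thresholds with DESeq2 and 9 with library totals instead of 4, and the clock genes at P35 had 2 with library totals instead of 5. The lowest count of any of the 10 genes in a P14 library was 34 (*Mettl21e*, KO replicate 1), and the median SD among mice at P14 was 0.85 in WT and 0.83 in KO (log2).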

Other observations

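Genes with a pattern like that of the 10 over P14, P21 and P35 were also read at P1, an age that did not enter the correlation. Of the 50 most alike among 18573 genes (Pearson *r* of 0.839 or more over 24 libraries), 49 were tested at P1 and 46 of them had a higher estimate in KO, as 52.8% of all genes did. Their median log2 fold change at P1 was 0.27, against 0.01 for all genes, and 17 had KO libraries above WT without overlap, which 3.85% of all genes had. By edgeR 0 of the 49 were called at P1. They were chosen by likeness to genes that were themselves chosen at P1, and they are given as values with no test.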
